A study of Mus musculus with 9 samples.

Results

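The nuclear-encoded subunits of the mitochondrial respiratory chain and of ATP synthase were examined in the liver of rats given fructose, with or without a herbal extract. The members were chosen by symbol from the count table: the Nduf subunits of complex I, the 4 Sdh subunits of complex II, the Uqcr subunits of complex III, the Cox4 to Cox8 subunits of complex IV and the Atp5 subunits of ATP synthase. The symbol pattern left out Ndufab1 of complex I and Cyc1 of complex III, which were listed with the other genes of the pathway. The rule found 82 of the 19686 genes in the table, with 80 distinct symbols, since Cox6b1 and Uqcrb each stand under 2 identifiers. By complex they were 35 genes of complex I, 4 of complex II, 9 of complex III, 18 of complex IV and 16 of complex V, with Ndufa4 and Ndufa4l2 placed in complex IV. The rule itself used symbols alone, but it was set with earlier results of these data known.

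The respiratory chain sits in the inner mitochondrial membrane. Complex I takes electrons from NADH and complex II from succinate, ubiquinone carries them to complex III and cytochrome c to complex IV, where oxygen is reduced. Complexes I, III and IV pump protons, and ATP synthase (complex V) lets the protons back through a ring of c subunits and makes ATP. Most subunits are encoded in the nucleus, and a small core is encoded by mitochondrial DNA. Hepatocytes are rich in mitochondria and draw on the chain for fatty acid oxidation, gluconeogenesis and urea synthesis.

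Liver RNA of male Wistar rats was sequenced, with 3 rats in each of 3 groups. The control group had purified water to drink and saline by gavage. The model group had 15% fructose as its drink and saline by gavage, a diet that gives features of metabolic syndrome. The HME group had the same 15% fructose and, by gavage, the 50% methanol extract of Danggui-Shaoyao-San (DSS), a formula of herbs, at 1.8 g/kg. Treatment lasted 8 weeks, and no group had the extract without fructose. The age of the rats is not given in the sources used here. The labels call the treated group DSS and number the samples within a group without saying more of their origin, so the p-values measure the spread between these samples.

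Library totals ranged from 14345819 to 26837227 counts. The members took between 0.830% and 1.06% of a library's counts. The hepatocyte markers (albumin, transthyretin and others, 7 of 7 detected) summed to between 137200 and 225400 CPM, as liver gives. The CPM value is the count relative to the library's TMM-normalised size, and fold changes are log2 values fitted by edgeR. To be called, a gene needed an FDR no higher than 0.01 in edgeR's quasi-likelihood test and a log2 fold change of 0.5 or more in either direction.

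One library stood apart in how the level of a gene depended on transcript length. The subunits are small proteins, and the mouse transcripts matched to 79 of the members had a median length of 727 bases, against 2895 bases for the other genes tested. In model replicate 1 the log2 CPM of a gene, relative to its mean over all libraries, fell by 0.26 per doubling of transcript length, and in the other 8 libraries the slope lay between -0.04 and 0.07. In this library the 617 other genes with a transcript under 1000 bases stood 0.41 above their own mean (median, log2 scale), 72 cytosolic ribosomal protein genes 0.46, and the 48 members under 1000 bases 0.55. The 5339 genes over 3000 bases stood at -0.20. Model replicate 1 also had the most counts, the lowest TMM factor (0.866), the highest sum of hepatocyte markers (225400 CPM) and of bile duct markers (33.3 CPM, against 15.1 to 23.3 in the others) and the lowest sum of stellate cell markers (74.4 CPM, against 87.1 to 122). The part of transcript length, or of any of these, in the results was not tested, and the fold changes and main counts that use this library are given with and without it.

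**Figure D1:**
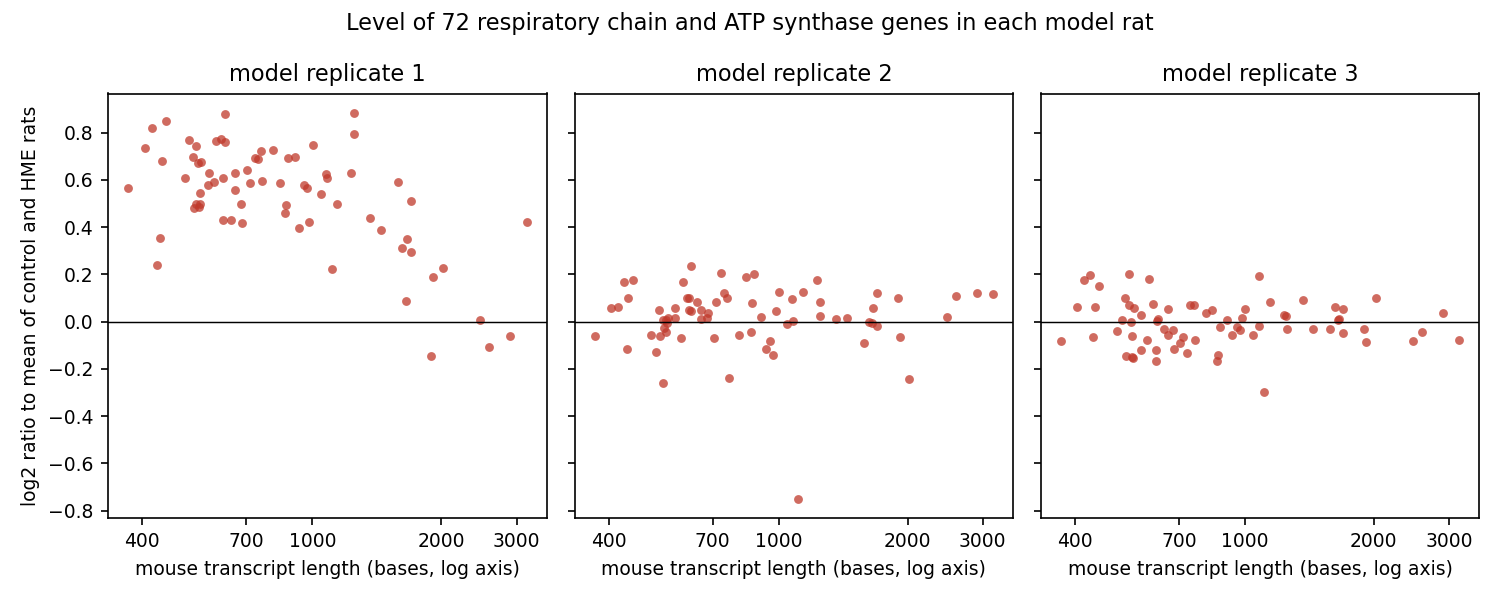
Log2 ratio of each of 72 subunit genes in model replicates 1, 2 and 3 to its mean over the control and HME rats (vertical axis), against the length of the matched mouse transcript in bases (horizontal log axis); each point is a gene. In replicate 1 most genes lie above 0, with a median of 0.60 under 1000 bases and 0.01 from 2000 bases up. The highest point there, at 0.88, is a gene of 1249 bases. In replicates 2 and 3 the points lie around 0.

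Against the mean of the control and HME rats, 71 of 75 members that passed the filter on low counts were higher in model replicate 1, by a median of 0.57 on the log2 scale. The corresponding numbers were 48 of 75 with a median of 0.02 in model replicate 2 and 34 of 75 with a median of -0.02 in model replicate 3. Within model replicate 1 the ratio tended to be lower for longer transcripts, with a Spearman correlation of -0.46 to length. The median ratio was 0.60 for the 48 members under 1000 bases, 0.50 for the 19 members of 1000 to 2000 bases and 0.01 for the 5 longer ones. These 5 ranged from -0.11 (Ndufs1) to 0.42 (Sdhc). Of the 9 rats, this rat had the highest level for 66 of the 75 members (88.0%), against 20.9% of all genes. The remaining 9 members had their highest level elsewhere, and they include the long transcripts of Ndufs1, Sdha, Uqcrc2 and Atp5f1a. They also include the short one of Uqcr10 (434 bases). The long transcripts of Sdhc (3171 bases) and Ndufa10 (2020 bases) were highest in model replicate 1.

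The levels of the subunits in liver spanned a wide range. Per kilobase of mouse transcript, the highest was Atp5f1b, the catalytic beta subunit of ATP synthase, at 703 CPM per kilobase over the 9 rats. The highest of complex III was Uqcrq, a small subunit, at 556, and the highest of complex IV was Cox4i1 at 426. The highest of complex I was Ndufa11 at 202 and of complex II Sdhb at 130 CPM per kilobase. These are levels on mouse lengths, so neighbours in this order are not separated.

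Complex IV has subunits with a separate form in muscle, lung or other tissues, and the liver libraries held nearly only the common forms. Cox4i1 took 99.9% of the counts of Cox4i1 and Cox4i2, Cox4i2 being the form known from lung. Cox7a2 took at least 99.8% against Cox7a1, and Cox8a more than 99.9% against Cox8b, in each library; Cox7a1 and Cox8b are the forms of heart and skeletal muscle. Cox6b1 took at least 99.8% against the testis form Cox6b2. In the same libraries the 2 of 10 striated muscle markers in the table summed to at most 0.357 CPM.

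In all, 7 members failed the filter in every comparison and have no test: Cox4i2 (1 to 18 counts a library), Cox6b2 and Cox7a1 (0 to 2 counts each), Cox8b (0 to 2 counts), Ndufa4l2 (0 to 8 counts), Ndufs6 (4 to 9 counts) and Ndufa1 (0 to 13 counts). Ndufs6 and Ndufa1 are subunits of complex I in all tissues, so their near-zero counts say little of the genes. The table holds further rows for copies of them under other names, at up to 0.860 CPM. Ndufa12 (26 to 76 counts) and Atp5pb (20 to 44 counts) were also low and have a named copy in the table. Reads that match a gene and its copy may have been split or dropped by the authors' counting, so the levels of these members are uncertain. Cox5a, Ndufa3, Ndufb4 and Ndufv3 have copies too, the largest at 3.98 to 12.1 CPM for Cox5a.

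Summed over the genes of a complex on the TMM scale, the members differed little between the groups except in model replicate 1. The sum over all 82 members was 8615, 9535 and 9381 CPM in the control rats, 12230, 9136 and 8904 CPM in the model rats and 8360, 8588 and 9471 CPM in the HME rats. Model replicate 1 was above the other 8 rats, and the other 8 overlapped between groups. The model mean was 10090 ± 1857 CPM (SD, n = 3) and 9020 CPM without this rat, beside 9177 ± 493 CPM in control and 8806 ± 587 CPM in HME. Complex I summed to 2274 ± 150 CPM in control, 2540 ± 559 CPM in model and 2173 ± 142 CPM in HME. Complex IV summed to 2502 CPM in model replicate 1, against 1666 and 1620 CPM in the other model rats. As a share of raw counts the members took 0.976, 0.980 and 0.984% in control, 1.06, 0.954 and 0.884% in model and 0.830, 0.869 and 0.860% in HME. On this scale every HME rat lay below every control and model rat. The same held within complexes I, II and III, while in complexes IV and V the HME rats overlapped the model rats. On the TMM scale the sums over all members overlapped between HME and control. In whole liver, fewer cells of a type and less RNA per cell cannot be told apart.

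**Figure D2:**
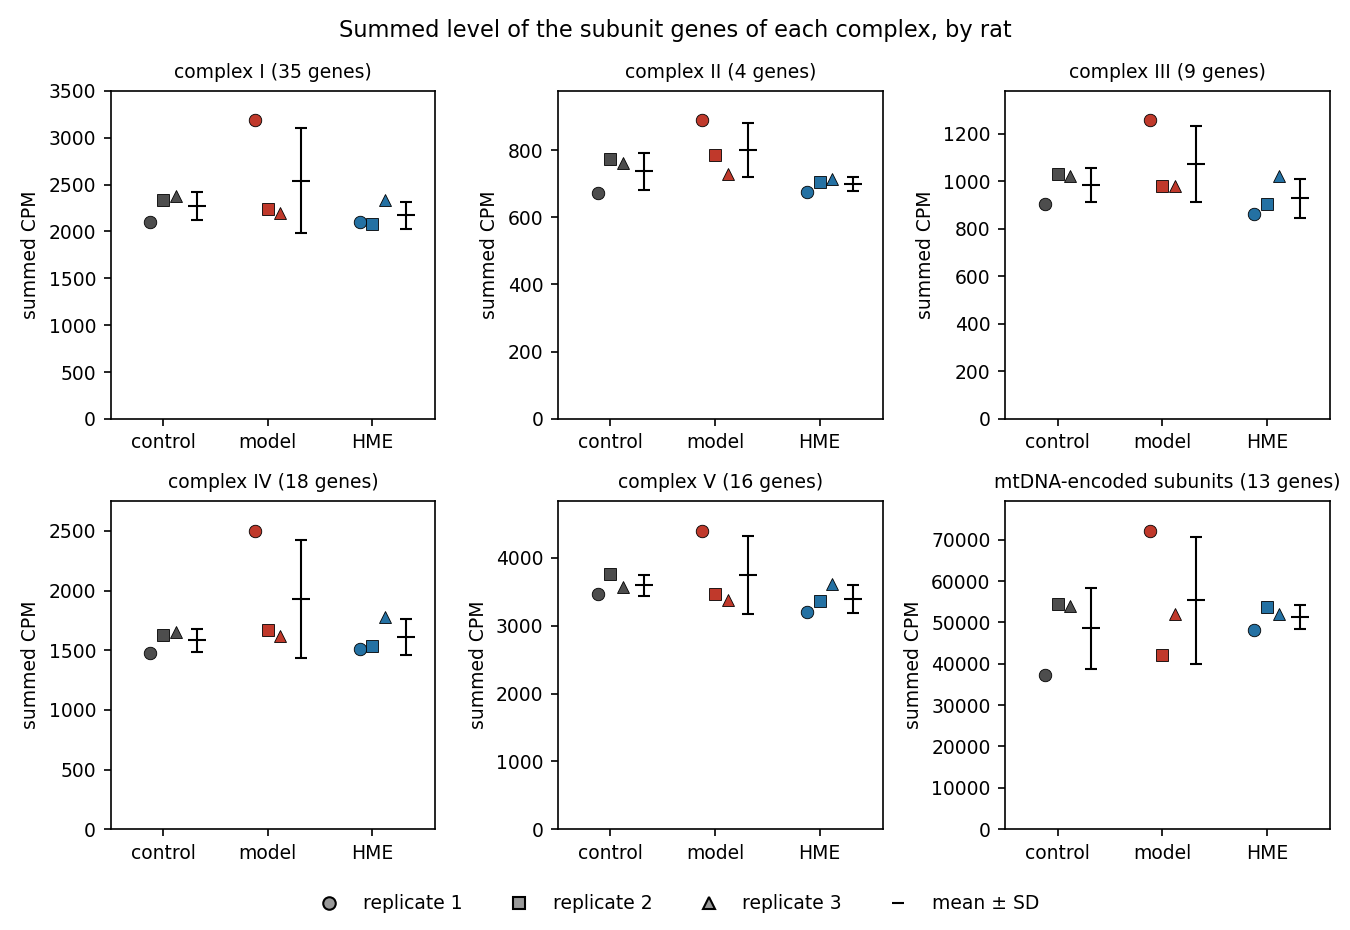
Summed CPM (vertical axes, from 0) of the subunit genes of each complex and of the 13 mtDNA-encoded genes in the control, model and HME rats; each symbol is a rat, and the bar beside each group is the mean ± SD (n = 3). Model replicate 1 is the highest rat in all 6 panels, at 3185 CPM for complex I, and the other model rats lie among the control and HME rats except in complex II, where model replicate 2, at 786 CPM, is above them.

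The first comparison asked what fructose did to these genes, as the difference of the model and control groups. No member was called (0 of 75, beside 0.0801% of the 12486 genes tested), and the lowest FDR was 0.262. At an FDR of 0.05 there was also none, beside 0.296% of genes higher and 0.304% lower. The fitted fold change was above 0 for 67 of 75 members, against 49.9% of all genes, with a median of 0.18 (all genes -0.00). Scaled to library size alone in place of TMM, it was above 0 for 38 of 75 members and 32.1% of all genes, with medians of 0.02 and -0.14. Without model replicate 1 it was above 0 for 28 and below 0 for 47, with a median of -0.04, and after a correction of each library for transcript length and GC content the median was 0.04. Across 72 members the log2 fold change had a Pearson r of -0.49 with the log2 length, and -0.21 without model replicate 1, as a description of genes that share the same libraries. The standard error of a member's log2 fold change had a median of 0.19 in this comparison and of 0.11 between HME and control, in which model replicate 1 takes no part.

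**Figure D3:**
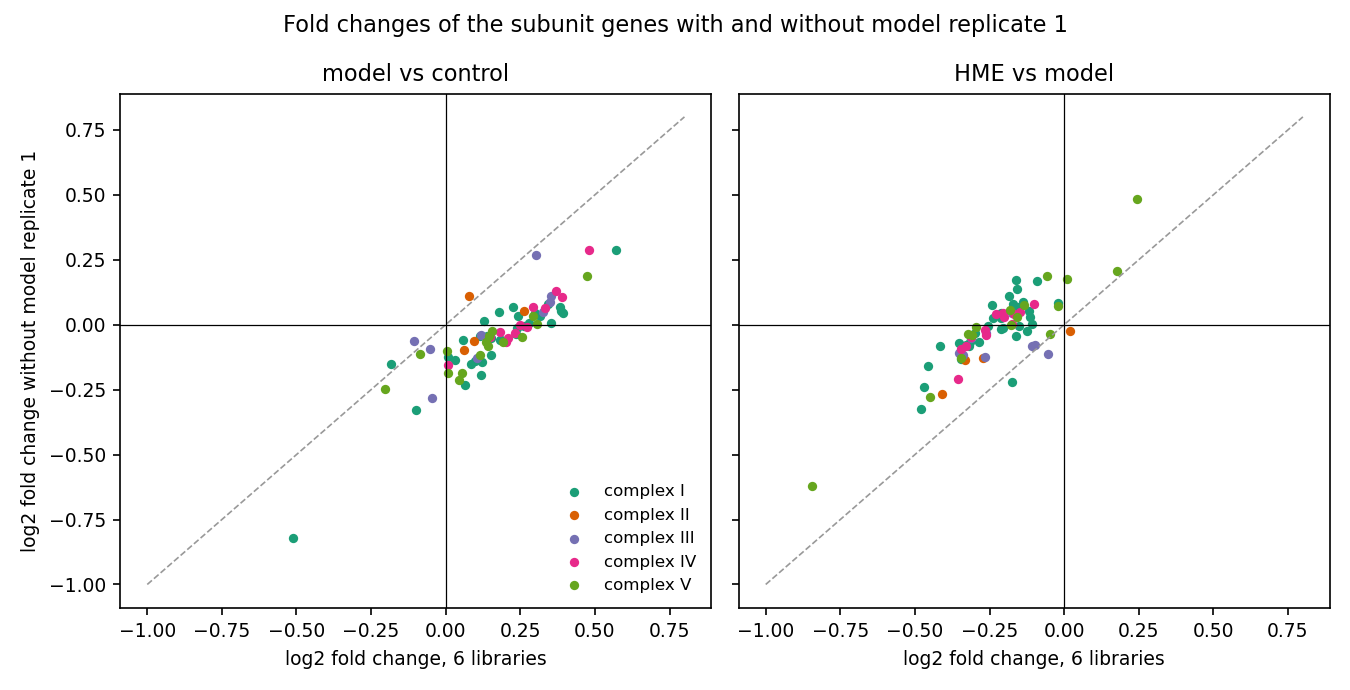
Log2 fold change of each of the 75 tested members with all 6 libraries (horizontal axis) and without model replicate 1 (vertical axis), for model against control (left) and HME against model (right); colours give the complex, and the dashed line is equality. On the left most points lie right of 0 but near or below 0 on the vertical axis, with medians of 0.18 and -0.04, and on the right they shift the other way, from -0.21 to -0.02.

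Single members of this comparison were described by the rats' values. Cox7a2l, a factor that helps complexes III and IV associate, was at 45.8, 47.0 and 46.8 CPM in the control rats, 80.1, 55.4 and 59.3 CPM in the model rats and 52.5, 57.8 and 61.8 CPM in the HME rats. Every fructose-fed rat of both groups was above every control rat. Its log2 fold change in model against control was 0.48 ± 0.16 (SE), with an FDR of 0.262 in edgeR, and 0.29 without model replicate 1. In HME against control it was 0.30 ± 0.10 with an FDR of 0.104.

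Ndufb2, an accessory subunit of complex I, was at 39.3, 35.7 and 45.3 CPM in control and 79.7, 49.99 and 49.0 CPM in model. The groups did not overlap, and the log2 fold change of 0.57 ± 0.21 (edgeR FDR 0.303) came to 0.29 without model replicate 1. Atp5f1e, the epsilon subunit of the ATP synthase stalk, was at 89.1, 96.6 and 99.4 CPM in control and 177, 105 and 114 CPM in model, with 0.47 ± 0.21 on the log2 scale (edgeR FDR 0.382) and 0.19 without that rat. Ndufb2 and Cox7a2l were the 2 members with an unadjusted p under 0.05, both higher, against 6.84% of all genes higher and 6.36% lower. Without model replicate 1 there was 1 member higher and 1 lower, beside 7.57% and 7.75% of genes. The groups did not overlap for 6 members, all higher, where 11.2% of all genes did so upward and 9.86% downward; besides these 3 they were Cox4i1, Ndufa4 and Uqcr11. With that rat left out, 7 members did so upward and 7 downward, beside 17.8% and 15.9% of genes. The lowest fold changes among members with a mean count of at least 50 belonged to long transcripts or were small: Ndufs1 -0.18 ± 0.13, Uqcrc2 -0.11 ± 0.13 and Ndufa8 -0.10 ± 0.19. Leaving that rat out gave -0.15, -0.06 and -0.33.

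The second comparison asked what the extract did on top of fructose, as HME against model, and it shares the model rats with the first. No member was called here either (0 of 75, beside 0.136% of 12502 genes), and the lowest FDR was 0.225, so none reached 0.05 (0.12% of all genes higher and 0.336% lower). The fold change was below 0 for 71 of 75 members, where 50.1% of all genes lay above 0, with a median of -0.21 (all genes 0.00). Without model replicate 1 it was below 0 for 44 and above 0 for 31, with a median of -0.02, and after the same correction the median was -0.08. Unadjusted, 6 members had a p under 0.05, all lower (Atp5mc1, Ndufv2, Atp5po, Sdhb, Ndufa5 and Cox5a), beside 4.49% of genes lower and 3.54% higher. Without model replicate 1 there were 3 lower and 1 higher, beside 4.35% and 3.70%. The HME rats all lay below the model rats for 13 members and above them for none, against 7.69% and 6.22% of all genes. Leaving out model replicate 1, they lay below for 14 members and above for 3, beside 12.7% and 11.5%. The highest fold changes at a mean count of at least 50 were 0.24 ± 0.22 for Atp5if1, 0.02 ± 0.12 for Sdha and 0.01 ± 0.17 for Atp5mc2. Leaving that rat out, they were 0.49, -0.02 and 0.17, with edgeR FDRs of 0.556 to 0.987.

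The comparison of HME with control does not use model replicate 1, and it holds fructose and extract together, whose parts cannot be told apart in it. Its members were centred near 0 with a longer lower end. No member was called (0 of 75, beside 1.48% of 12633 genes), and Atp5mc1, at a log2 fold change of -0.80, missed the FDR threshold of 0.01 with an FDR of 0.0107. The fold change was above 0 for 30 members and below 0 for 45 (49.1% of all genes above 0), with a median of -0.03 (all genes -0.01). With library size alone it was above 0 for 9 of 75 members and 33.1% of all genes, with medians of -0.16 and -0.14. An FDR of at most 0.05 was reached by 3 members, all lower, beside 3.67% of genes lower and 3.54% higher. They were Atp5mc1, Ndufv2 and Ndufa8. Unadjusted, 11 members were lower at p under 0.05 and 1 higher, beside 12.5% and 11.9% of all genes. The groups did not overlap for 14 members lower and 2 of the tested members higher, beside 14.9% and 15.1%. The counts of lower members are thus close to those of all genes, and the counts of higher members lie below them. By absolute size, 73 of 75 fold changes were under 0.5, the others being Atp5mc1 and Ndufa12, a member with few counts (-0.70 ± 0.33). The summed hepatocyte markers were 137200 to 174600 CPM in control and 169900 to 215300 CPM in HME, and their part in these values was not tested.

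**Figure D4:**
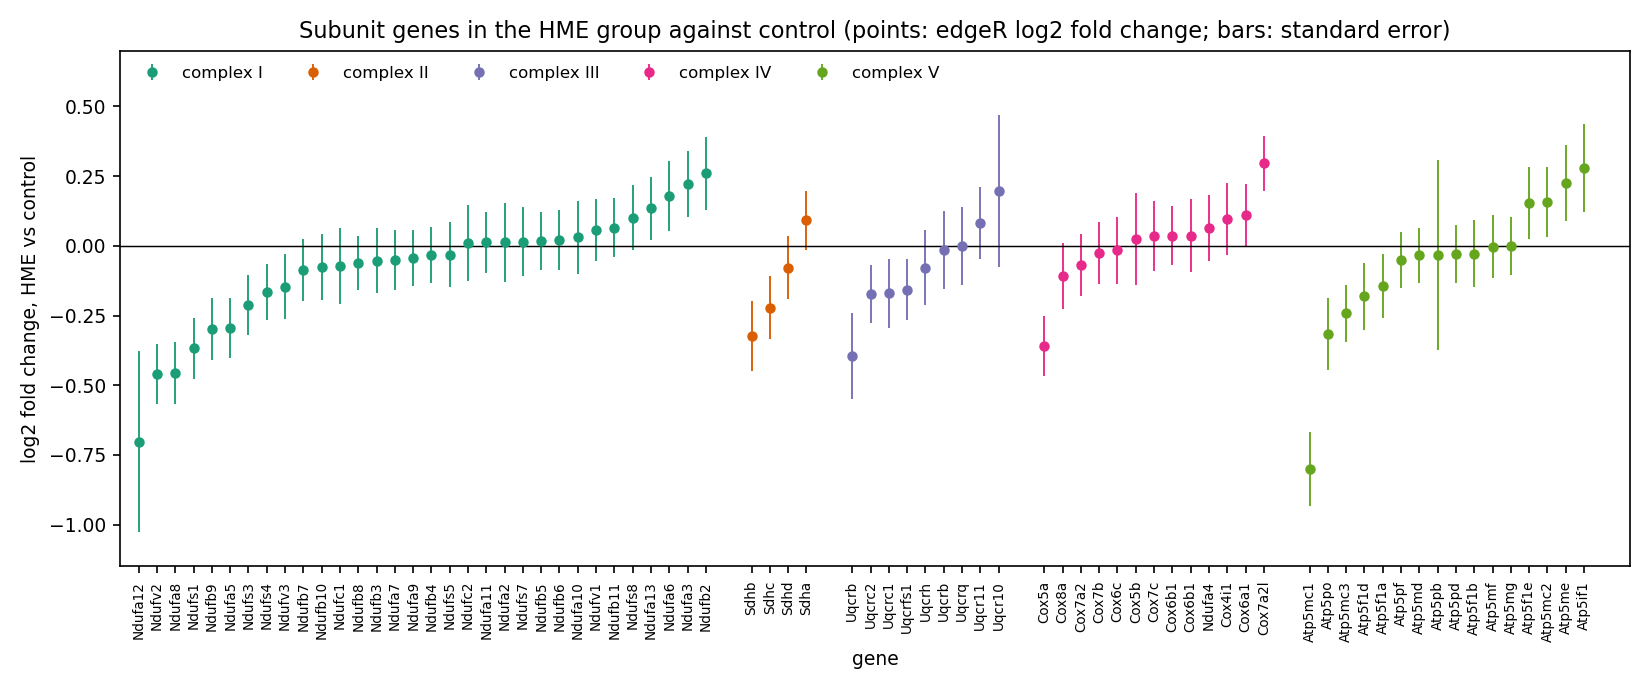
Log2 fold change of 74 of the 75 tested members in HME against control (vertical axis; points are edgeR estimates, bars the standard error), ordered within each complex (horizontal axis, coloured by complex). Most members lie within 0.4 of 0, and Atp5mc1 of complex V stands at -0.80 ± 0.13, apart from the other well-counted members; Ndufa12 is shown at -0.70, and the member not shown lies within 0.5 of 0.

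In complex I the values of single subunits follow, and differences between subunits were not tested. Ndufv2, a subunit of the NADH-oxidising module, was at 112, 130 and 123 CPM in control, 150, 114 and 109 CPM in model and 85.6, 85.8 and 95.1 CPM in HME. All HME rats lay below all control and model rats, with a log2 fold change of -0.46 ± 0.11 against control (edgeR FDR 0.0367). Against the model group it was -0.48 ± 0.16 (edgeR FDR 0.444) and -0.33 without model replicate 1. Its partner Ndufv1, which binds NADH and the flavin, was at 112 ± 12.1 CPM in control and 117 ± 2.41 CPM in HME (SD, n = 3), a log2 fold change of 0.06 ± 0.11.

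Ndufs1, the large iron-sulphur subunit of the same module, was at 135, 159 and 146 CPM in control, 121, 141 and 127 CPM in model and 110, 119 and 114 CPM in HME. The HME rats were again the lowest of the 9, with -0.37 ± 0.11 against control (edgeR FDR 0.0760). Model replicate 1 was not high for this gene, whose matched mouse transcript has 2590 bases.

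Ndufa8, an accessory subunit of the membrane arm, was at 77.2, 74.9 and 87.8 CPM in control, 95.3, 67.2 and 61.6 CPM in model and 54.3, 56.9 and 64.6 CPM in HME. The HME rats lay below the control rats but overlapped the model rats, and the log2 fold change against control was -0.46 ± 0.11 (edgeR FDR 0.0426). Ndufa5 (-0.30 ± 0.11) and Ndufb9 (-0.30 ± 0.11), further accessory subunits, did not overlap with control either and had FDRs of 0.128 and 0.140 in edgeR. Over complex I, 14 of 33 tested members had a fold change above 0 and 19 below, with a median of -0.03.

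None of the 4 subunits of complex II passed the test in HME against control, and differences between subunits were not tested. Sdha, the flavoprotein that oxidises succinate, was at 272, 293 and 292 CPM in control, 284, 321 and 303 CPM in model and 302, 305 and 310 CPM in HME. The HME rats were all above the control rats, by a log2 fold change of 0.09 ± 0.11, which is within its error. Sdhb, the iron-sulphur subunit that passes electrons on from Sdha, was at 135, 159 and 173 CPM in control, 198, 153 and 149 CPM in model and 115, 133 and 127 CPM in HME. Here the HME rats were the lowest, with -0.32 ± 0.13 against control (edgeR FDR 0.152) and -0.41 ± 0.15 against model (edgeR FDR 0.551; -0.27 without model replicate 1). The membrane anchors Sdhc and Sdhd had log2 fold changes of -0.22 ± 0.11 and -0.08 ± 0.11 against control.

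In complex III the catalytic and core subunits among the members varied by little. Cyc1, a subunit of this complex outside the members, was at 158 ± 14 CPM in control, 147 ± 21.9 CPM in model and 120.5 ± 4.17 CPM in HME. Its HME rats lay below all control and model rats, with -0.40 ± 0.11 against control (edgeR FDR 0.0646, DESeq2 FDR 0.0291). Against model it was -0.28 ± 0.14 (edgeR FDR 0.704), and -0.15 without model replicate 1. Uqcrfs1, the Rieske iron-sulphur protein, was at 172 ± 12.9 CPM in control, 187 ± 30.7 CPM in model and 155 ± 7.06 CPM in HME, with -0.16 ± 0.11 in HME against control. Uqcrc2, a core protein, was at 180 ± 10.97, 168 ± 14.2 and 161 ± 2.62 CPM, with -0.17 ± 0.10. The 2 identifiers of Uqcrb went apart, at -0.39 ± 0.15 (edgeR FDR 0.156) for ENSRNOG00000032204 and -0.01 ± 0.14 for ENSRNOG00000024967. Reads that match both may have been split or dropped, which was not tested, so both values are uncertain.

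In complex IV, Cox4i1, which has a regulatory role in the enzyme, was at 265, 304 and 280 CPM in control, 472, 319 and 308 CPM in model and 269, 298 and 345 CPM in HME. The model rats lay above the control rats, and the log2 fold change of 0.37 ± 0.19 (edgeR FDR 0.467) came to 0.13 without model replicate 1. Cox5a was at 98.8, 116 and 119 CPM in control, 133, 105 and 97.0 CPM in model and 85.2, 87.9 and 87.9 CPM in HME. The HME rats were the lowest of the 9, with -0.36 ± 0.11 against control (edgeR FDR 0.0811). Of the 13 tested members of the complex, 8 had a fold change above 0 in HME against control, with a median of 0.04.

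In complex V, Atp5f1b of the catalytic head was at 1352 ± 52.0 CPM in control, 1358 ± 147 CPM in model and 1332 ± 102 CPM in HME, and its log2 fold change in HME against control was -0.03 ± 0.12. Atp5f1a, the alpha subunit of the same head, was at 756 ± 51.1, 714 ± 26.9 and 688 ± 13.9 CPM. Its HME rats all lay below the control rats, by a log2 fold change of -0.14 ± 0.11 (edgeR FDR 0.485). Atp5if1, which inhibits ATP hydrolysis by the enzyme, was at 12.9, 14.0 and 16.4 CPM in control, 19.3, 13.7 and 11.4 CPM in model and 14.4, 18.5 and 19.7 CPM in HME. The groups overlapped, with 0.28 ± 0.16 against control (edgeR FDR 0.313). Atp5po, of the peripheral stalk, had -0.32 ± 0.13 (edgeR FDR 0.168).

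The proton-carrying c ring is built from a single protein that is encoded by 3 genes, Atp5mc1, Atp5mc2 and Atp5mc3, which differ in their import sequences. Atp5mc1 was at 154.5, 157 and 171 CPM in control, 216, 142 and 143.5 CPM in model and 76.4, 96.6 and 105 CPM in HME. Every HME rat was below every other rat. Its log2 fold change was -0.80 ± 0.13 in HME against control (edgeR FDR 0.0107), -0.85 ± 0.20 in HME against model (edgeR FDR 0.225; -0.62 without model replicate 1) and 0.05 ± 0.19 in model against control (-0.19 without model replicate 1). The call in HME against control depended on the tool and setting. DESeq2 gave -0.79 with an FDR of 1.25e-05, library size in place of TMM gave -0.94 with 0.00349, and no filter on low counts gave -0.80 with 0.000579. Leaving out each rat in turn gave -0.89 to -0.68 with FDRs from 0.0158 to 0.0391. In HME against model DESeq2 gave an FDR of 0.0169.

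Atp5mc2 was at 152, 173 and 167 CPM in control, 222, 160 and 166.5 CPM in model and 171, 170 and 210 CPM in HME, with 0.16 ± 0.12 in HME against control (edgeR FDR 0.484). Atp5mc3 was at 200, 211 and 207.5 CPM in control, 286, 202 and 182.5 CPM in model and 169, 175 and 181.5 CPM in HME, with -0.24 ± 0.10 (edgeR FDR 0.187). The shares of the 3 genes in the subunit c counts compare genes within a library. Atp5mc1 held 30.5, 29.1 and 31.3% in control, 29.8, 28.2 and 29.1% in model and 18.4, 21.8 and 21.2% in HME. Model replicate 1 was not apart on this scale, and the HME rats lay below the other 6. Atp5mc2 held 30.0, 32.0 and 30.7% in control, 30.7, 31.8 and 33.8% in model and 41.1, 38.5 and 42.3% in HME. The share of Atp5mc3 was 38.8 ± 0.752, 38.9 ± 1.59 and 38.9 ± 2.11% (SD, n = 3). The 3 shares sum to the whole in each rat, so a lower share of one gene raises the summed share of the others.

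**Figure D5:**
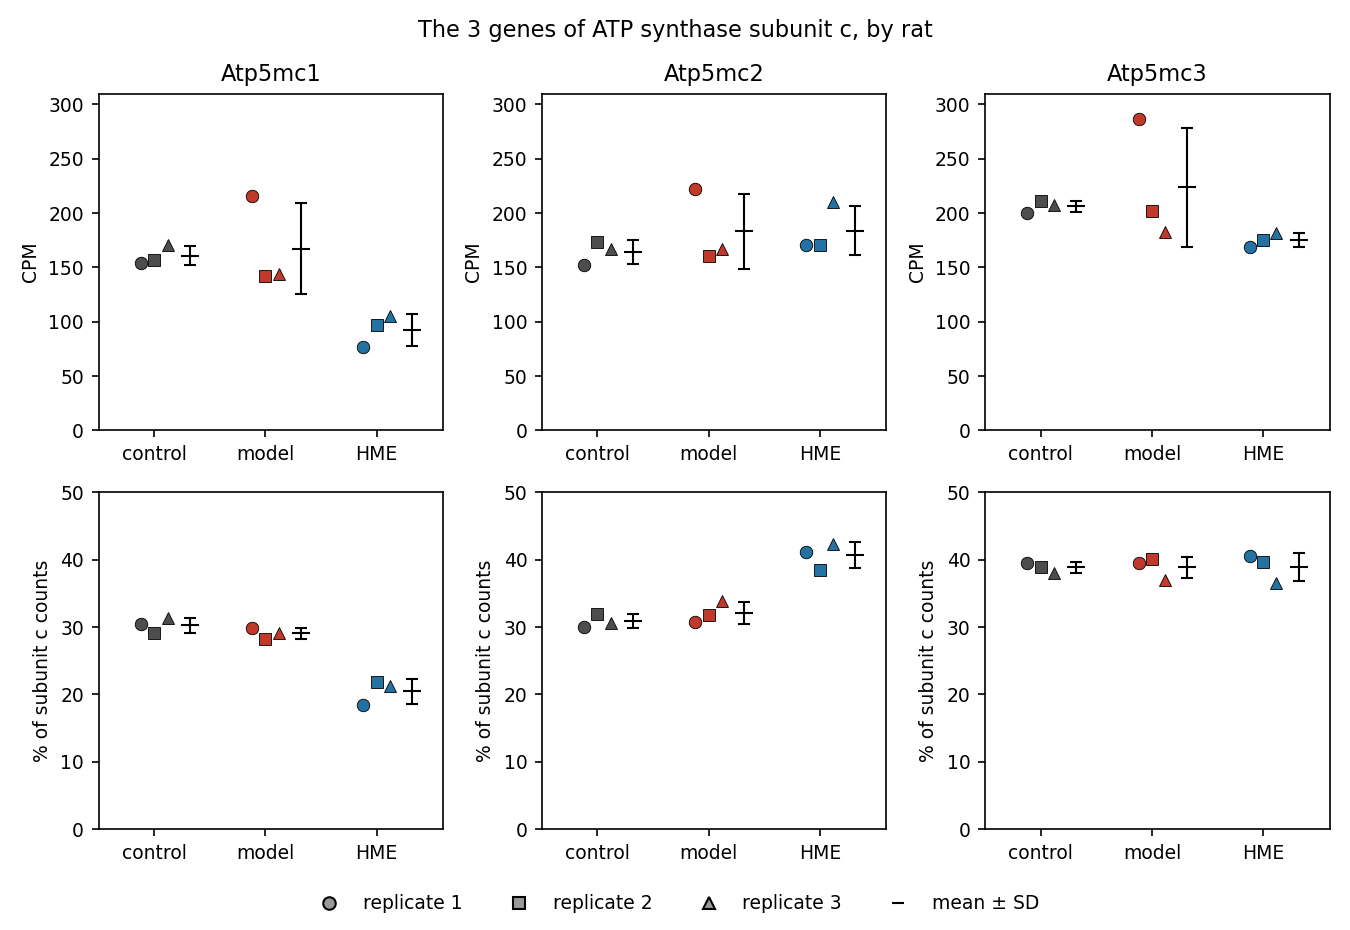
CPM (upper row) and share of the summed counts of the 3 subunit c genes in percent (lower row) for Atp5mc1, Atp5mc2 and Atp5mc3 in each control, model and HME rat; symbols are rats and bars the mean ± SD (n = 3). Model replicate 1 is high in CPM for all 3 genes but not in share, and the HME rats hold 18.4 to 21.8% for Atp5mc1 against 28.2 to 31.3% in the others.

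The other genes of the pathway were taken by list. The 13 subunits encoded by mitochondrial DNA took 4.23 to 6.26% of a library's counts, with the lowest share in control replicate 1 and the highest in model replicate 1. None was called, where 0.0801%, 0.136% and 1.48% of all genes were called in the 3 comparisons. Their median log2 fold change was 0.14 in model against control (-0.10 without model replicate 1), -0.00 in HME against model (0.16 without it) and 0.14 in HME against control. The most abundant, COX1, was at 18030 CPM in control.

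Of 15 complex I assembly factors, 1 was called in HME against control, beside 1.48% of all genes. Ndufaf4 was at 28.1, 29.7 and 22.4 CPM in control, 20.6, 12.5 and 17.2 CPM in model and 8.39, 12.0 and 9.26 CPM in HME. The 3 groups did not overlap. It fell by 1.44 ± 0.17 on the log2 scale in HME against control (edgeR FDR 0.00225), and it was at -0.67 ± 0.21 in model against control (edgeR FDR 0.228; -0.86 without model replicate 1) and -0.76 ± 0.23 in HME against model (edgeR FDR 0.401; -0.59 without it). Without control replicate 1 its FDR in HME against control was 0.0123, and without HME replicate 3 it was 0.0127. Timmdc1, Ndufaf7 and Ndufaf3, of the same list, had edgeR FDRs of 0.0686, 0.0600 and 0.0789, all lower. Over the list, 9 of 15 were lower, with a median of -0.04. Of 28 tested assembly factors of the other complexes, 19 were lower, with a median of -0.07. Coa6, which serves complex IV, was the 1 with an FDR under 0.05 (-0.83 ± 0.21, edgeR FDR 0.0491; 3.67% of all genes were lower at this level), at 4.07 ± 0.475 CPM in control and 2.31 ± 0.162 CPM in HME.

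Of 16 regulators of mitochondrial biogenesis and of the mitochondrial genome, 1 was called in HME against control, beside the same 1.48% of all genes. Polg, the polymerase of mitochondrial DNA, was at 70.0, 74.8 and 68.7 CPM in control, 109, 121 and 170 CPM in model and 219, 171 and 176 CPM in HME. The 3 groups did not overlap. It rose by 1.40 ± 0.13 on the log2 scale (edgeR FDR 0.000687), and the call held with each rat left out, at 1.28 to 1.47. In model against control the log2 fold change was 0.90 ± 0.18, with an FDR of 0.0844 in edgeR and 0.00119 in DESeq2. Without model replicate 1 it was 1.02, with an edgeR FDR of 0.0349. In HME against model the log2 fold change was 0.51 ± 0.20 with an edgeR FDR of 0.574, and 0.38 without that rat, so this step did not pass the test. The counting did not use strand, so reads of a gene that overlaps Polg on the other strand would be counted with it or dropped. Esrra, a nuclear receptor that drives respiratory chain genes, was at 35.6 ± 4.61, 37.5 ± 2.33 and 25.5 ± 1.59 CPM. Its HME rats lay below all control and model rats. In HME against control it had -0.49 ± 0.13 (edgeR FDR 0.0498, DESeq2 FDR 0.0326). In HME against model it had -0.55 ± 0.13 (edgeR FDR 0.191, DESeq2 FDR 0.0458), and -0.52 without model replicate 1. Ppargc1b, a coactivator of such receptors, was at 0.688 CPM in model replicate 1 and at 2.50 to 5.25 CPM in the other 8 rats. In HME against control Ppargc1b had -0.68 ± 0.22 (edgeR FDR 0.0955) and Ppara 0.63 ± 0.20 (edgeR FDR 0.1015). Over this list, 8 of 16 were higher and 8 lower in HME against control, with a median of -0.02.

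Of 17 electron carriers and entry points, Etfdh came nearest to a call. It passes electrons from fatty acid oxidation to ubiquinone. It was at 187, 203 and 196 CPM in control, 305, 285 and 305 CPM in model and 287, 298 and 320 CPM in HME. All fructose-fed rats lay above all control rats, with 0.61 ± 0.13 in model against control (edgeR FDR 0.0908, DESeq2 FDR 0.000790; 0.58 without model replicate 1) and 0.62 ± 0.11 in HME against control (edgeR FDR 0.0130, DESeq2 FDR 4.09e-06). The difference of HME and model was 0.02 ± 0.13, and 0.04 without model replicate 1. Over this list, 13 of 17 were lower in HME against control, with a median of -0.12.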

How the data were processed

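The authors aligned reads to Rnor_6.0 with HISAT2 and used HTSeq 0.6.1 to count, without strand, those on exons (tools and build per the submitters' processing notes), and deposited whole-number counts per gene. The labels name mouse, but strain and gene identifiers are of the rat, and the labels' DSS group was read as HME, the only extract taken to transcriptomics by the paper's methods. A second table, of assembled transcripts, was not used. The 6 libraries of a comparison were fitted in edgeR 4.0.16 under R 4.3.3: filterByExpr, TMM, robust glmQLFit, two-sided glmQLFTest, Benjamini-Hochberg FDR over all genes tested. The standard error of an edgeR fold change was derived from the test. It is the absolute log2 fold change divided by the square root of the F statistic. DESeq2 1.42.0 was an alternative. The spread between rats, at 14345819 to 26837227 counts per library, set the precision. An exact permutation test of 3 against 3 rats cannot go below p = 0.1. Rat genes were matched by symbol to a mouse transcript of GENCODE M21 for length and GC content. The scripts were tested on simulated data.

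Named members were the 3 largest fold changes each way per comparison at a mean count of at least 50, called members, tissue isoforms, Sdh and catalytic subunits, the highest and lowest per complex, members failing the filter, and members without overlap in 2 or more comparisons. Pathway genes, and members outside this rule, were named after their values were seen. Members and lists were chosen with earlier results of these data known. No gene was left out of the fits, and some are not reported here by name.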

Additional observations from a re-analysis of the deposited data

How the results depend on the processing

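The count of called members was 0 in model against control and in HME against model under every alternative run. In HME against control it was 0 with TMM, DESeq2's size factors, at least 10 counts in every library, all 9 libraries fitted together, a block for replicate number and each rat left out. It was 1 (Atp5mc1) at an FDR of 0.05, without a filter, in DESeq2 and with the length and GC trend removed, where its log2 fold change was -0.81 with an FDR of 0.00482. It was 2 with library size alone, which added Ndufv2 (-0.59, FDR 0.00784) and moved the members' median to -0.16 and that of all genes to -0.14. Members with an unadjusted p under 0.05 numbered 2 in model against control, 1 with library size alone, 4 with the length and GC trend removed, and 1 to 6 with a rat left out. In HME against model they numbered 6, and 2 to 12 with a rat left out. In HME against control they numbered 12, 22 with library size alone, 5 with all 9 libraries in one fit, and 6 to 16 with a rat left out. With a rat left out the median was -0.044 to 0.28 in model against control, -0.32 to -0.022 in HME against model and -0.08 to 0.02 in HME against control. The lowest of the first and the highest of the second came without model replicate 1. Fold changes near 0 turned sign for Ndufa8 in model against control without model replicate 3 (range with a rat left out -0.33 to 0.025), Sdha in HME against model without model replicate 1 (-0.025 to 0.061) and Atp5mc2 in HME against model without model replicate 2, model replicate 3 or HME replicate 3 (-0.089 to 0.17). The causes were not tested. Same-numbered rats did not deviate together (correlations from -0.25 to -0.01). Whether they share more than a number is not given by the labels. With the replicate number as a block, 2 members had a p under 0.05 in HME against model, and no other count moved by over 1.5 times. Low counts limit Ndufa12, Atp5pb and the 7 members without a test.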

Other observations

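The genes of the TCA cycle, which feeds NADH and succinate to the chain, were lower in HME against control for 12 of 13 members, with a median log2 fold change of -0.24 beside -0.01 for all genes, and none was called, beside 1.48% of all genes. The median was -0.12 in model against control (-0.18 without model replicate 1) and -0.13 in HME against model (-0.12 without it), with none called. Idh3a, a subunit of the NAD-dependent isocitrate dehydrogenase, was at 27.4, 29.4 and 27.8 CPM in control, 29.3, 22.3 and 28.1 CPM in model and 17.2, 22.5 and 18.4 CPM in HME, with -0.55 ± 0.13 in HME against control (edgeR FDR 0.0360). Mdh2 had -0.48 ± 0.15 (edgeR FDR 0.0893), and for 7 of 13 genes the HME rats lay below all control rats, beside 14.9% of all genes.

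Mitochondrial ribosomal proteins, which translate the mtDNA-encoded subunits, were lower in HME against control for 54 of 74 genes, with a median of -0.14 beside -0.01 for all genes. Their median in model against control was 0.08, and -0.12 without model replicate 1, when 57 of 73 were lower. In HME against model it was -0.19, and -0.03 without that rat. Cytosolic ribosomal proteins, encoded by short transcripts like the subunits, were higher in model against control for 67 of 72 genes with a median of 0.25, and without model replicate 1 for 53 of 73 with a median of 0.06.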
